A study of Bos taurus with 14 samples.

Results

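The miR-99, miR-100 and miR-125 family was followed in cattle blood through 5 of the 932 miRNA names listed over 14 small RNA libraries. The 5 members, bta-miR-99a-5p, bta-miR-99b, bta-miR-100, bta-miR-125a and bta-miR-125b, were taken by name and not by their values. Blood came from 4 non-lactating, rumen-cannulated Holstein cows, each sampled on a forage diet (FD, 0% concentrate) and again in the first week of a high-grain diet (HG, 65% concentrate), a feeding change used as a model of subacute ruminal acidosis. Plasma, the cell-free fraction, gave 4 libraries on each diet (cows 1 to 4), and leucocytes, taken from the buffy coat, gave 3 on each diet (cows 1, 3 and 4). No animal stayed on forage throughout, so diet and time cannot be told apart. Plasma RNA and leucocyte RNA were extracted with different kits, so kit and sample type cannot be told apart either.

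Mature miRNAs guide Argonaute proteins to messenger RNAs, mainly through a short seed near the 5′ end. miR-99a, miR-99b and miR-100 carry one seed, related to that of miR-10, while miR-125a and miR-125b carry another and are the vertebrate relatives of lin-4, the first miRNA described. In mammals the genes of both seed families lie in small clusters together with let-7 genes, and members of the family are known from stem cells, blood progenitors and vessel walls.

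In the library files, which use the cow genome build UMD3.1, miR-99b (chromosome 18, 58014874 to 58014895, plus strand) and miR-125a (58015549 to 58015571) lay 653 bases apart on one strand with let-7e between them. On chromosome 1, minus strand, miR-99a-5p (19931197 to 19931217) lay 706 bases from let-7c. On chromosome 15, also on the minus strand, miR-100 (33353407 to 33353428) lay 5812 bases from let-7a and 54556 bases from miR-125b (33298829 to 33298850). miR-125b has a second hairpin, and RefSeq (assembly ARS-UCD2.0, used for names and neighbours) placed that gene, MIR125B-2, together with MIR99A and MIRLET7C inside the long non-coding RNA gene LOC132345457. MIR125B-1 lay inside the non-coding genes LOC101903557 and LOC100848689, and no annotated gene spanned MIR99B, MIRLET7E, MIR125A, MIR100 or MIRLET7A-2. Reads of mature miR-125b cannot be assigned to one of its hairpins.

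All 5 members were detected in all 14 libraries, with 414 to 119849 reads each. A library held 292241 to 3178990 reads in plasma and 18324737 to 56770875 in leucocytes, counted after a read that matches several names was divided among them. With the members' reads, 95% Wilson intervals for a single library reached at most 9.64% of the value to either side, and they cover counting error only, since reads without molecular identifiers are not independent molecules. The division itself differed between members: miR-125a kept its reads in full, whereas reads of miR-99b were divided by 2 and those of the others by 1.98 to 2.64. Levels are therefore divided reads per 1000000 divided reads of all listed names (CPM) when a member is followed across libraries, and undivided reads when members are compared with each other. The human-named entries hsa-miR-99b-5p and hsa-miR-100-5p had the same values as their bovine namesakes in every library. The human-named entries of miR-99a, miR-125a and miR-125b were not analysed here. miR-99a-5p and miR-100 also shared reads with each other, which made up 0% to 48.3% of the miR-100 reads in plasma (48.3% in cow 2 on FD) and 7.04% to 19.8% in leucocytes.

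All members but miR-99a-5p had higher CPM in plasma than in leucocytes, whereas the levels of miR-99a-5p overlapped. miR-99a-5p, one of the miRNAs carried within a let-7c cluster, measured 1110, 3747, 1703 and 1649 CPM in plasma of cows 1 to 4 on FD and 1279, 1498, 1653 and 2435 CPM on HG. In leucocytes of cows 1, 3 and 4 it measured 800, 1243 and 1549 CPM on FD and 885, 1208 and 1223 CPM on HG. The sample types overlapped, and cow 2 on FD was the highest of all libraries.

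miR-99b, which shares the seed of miR-99a, measured 1381, 460, 374 and 111 CPM in plasma on FD and 197, 412, 737 and 294 CPM on HG. In leucocytes it measured 8.21, 12.2 and 26.8 CPM on FD and 9.1, 11.7 and 14.7 CPM on HG. Every plasma library lay above every leucocyte library, although within plasma on FD cow 1 stood far above cow 4. miR-100 measured 708, 998, 308 and 338 CPM in plasma on FD and 316, 713, 1048 and 437 CPM on HG. Its leucocyte values were 6.62, 10.1 and 33.6 CPM on FD and 6.95, 9.21 and 16.3 CPM on HG. Again the lowest plasma library lay above the highest leucocyte library, with shared reads included or left out (279 to 1095 and 5.93 to 32.6 undivided CPM without them).

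miR-125a, the partner of miR-99b on chromosome 18, measured 4082, 2213, 2680 and 3524 CPM in plasma on FD and 1575, 3483, 5908 and 2270 CPM on HG. In leucocytes it measured 28.5, 49.2 and 143 CPM on FD and 30.6, 52.8 and 75.1 CPM on HG. The groups of the 2 sample types were separated by a wide gap, and cow 3 on HG had the highest value. miR-125b measured 1577, 2129, 1141 and 1093 CPM in plasma on FD and 916, 2097, 2862 and 1239 CPM on HG. In leucocytes it measured 77.1, 102 and 252 CPM on FD and 95.6, 157 and 210 CPM on HG. The lowest plasma value of miR-125b (916 CPM) lay above its highest leucocyte value (252 CPM). Over all names tested in the 14 libraries, 17.6% had every plasma library above every leucocyte library and 16.7% every plasma library below. In bulk samples, fewer cells of a type and less RNA per cell cannot be told apart.

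**Figure D1:**
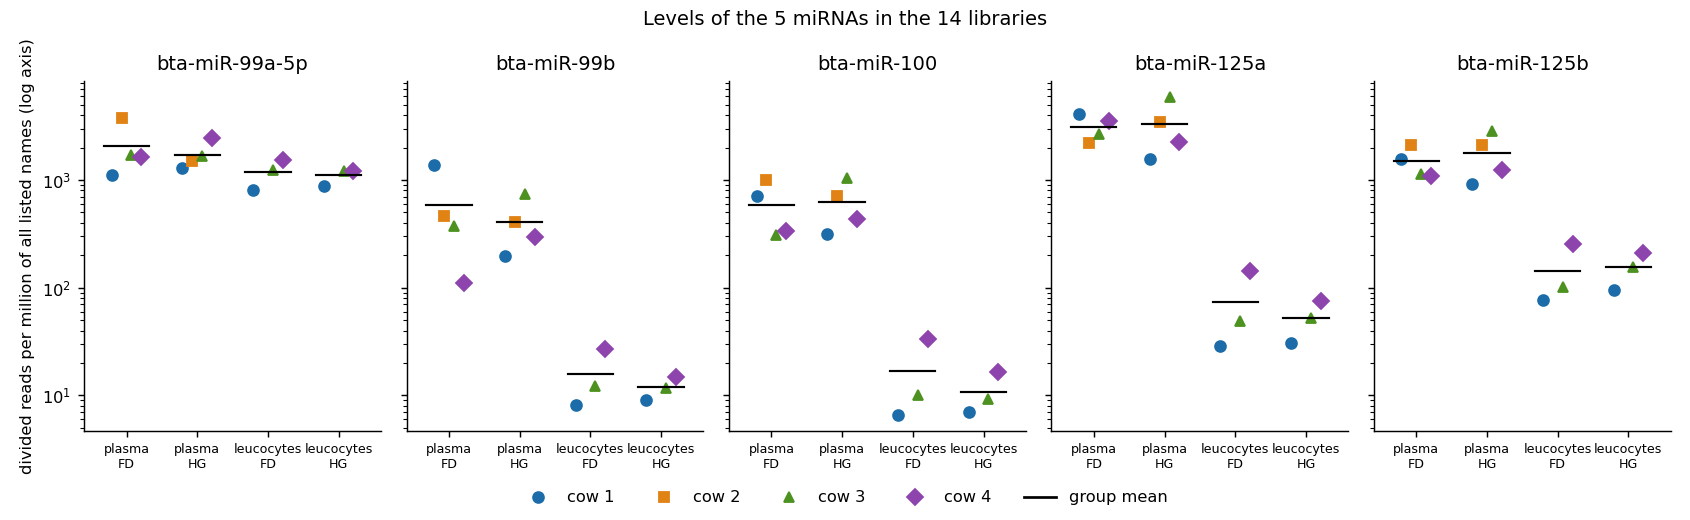
Divided reads per 1000000 (CPM, log axis) of each member in the 14 libraries, by sample type and diet; points are cows and black lines are group means. miR-99a-5p is between 800 and 3747 in all libraries, while the other 4 members are at 111 or more in plasma and at 252 or less in leucocytes, with no overlap within a member.

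Among the members, miR-99a-5p was the most abundant name of the family in leucocytes by a wide margin and shared that place with the miR-125 members in plasma. On undivided reads, leucocytes had 1199 ± 300.0 CPM (SD, n = 6 libraries) of miR-99a-5p, 156 ± 78.1 of miR-125b, 33.0 ± 22.1 of miR-125a, 15.3 ± 10.8 of miR-100 and 14.3 ± 7.0 of miR-99b. The first 3 steps of this order held in 6 of 6 libraries, whereas miR-100 exceeded miR-99b in 2 of 6, so these neighbours did not differ beyond their spread. In plasma the order was miR-99a-5p at 1998 ± 962 CPM (SD, n = 8 libraries), miR-125b at 1674 ± 706, miR-125a at 1656 ± 720, miR-100 at 690 ± 377 and miR-99b at 512 ± 420. Here miR-99a-5p exceeded miR-125b in 5 of 8 libraries and miR-125b exceeded miR-125a in 4 of 8, so the upper 3 were not separated. miR-125a exceeded miR-100 in 7 of 8 and miR-100 exceeded miR-99b in 6 of 8 libraries. The exception among the former was cow 2 on FD, with 2478 reads of miR-125a and 2948 of miR-100, of which 1424 were shared with miR-99a-5p.

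Together the 5 members took 0.783% ± 0.162 (SD, n = 4) of the divided reads of plasma on FD and 0.784% ± 0.333 on HG, against 0.145% ± 0.0543 (SD, n = 3) and 0.134% ± 0.0271 of those of leucocytes. Of the family's undivided reads, miR-99a-5p made up 80.1% to 89.3% in leucocytes and 16.3% to 44.8% in plasma. miR-125a made up 1.51% to 3.70% in leucocytes and 12.2% to 34.9% in plasma, and the mean shares of miR-125b, miR-100 and miR-99b were also higher in plasma. The shares of a library add up to the whole, so a lower share of miR-99a-5p raises the total of the others. These shares are formed within a library, so scaling between libraries does not enter them. The same was seen in ratios between members, which cancel the library total. The log2 ratio of miR-99a-5p to miR-125b was 0.25 ± 0.70 (SD, n = 8) in plasma and 3.06 ± 0.42 (SD, n = 6) in leucocytes. The ratio to miR-100 was 1.60 ± 0.75 in plasma and 6.5 ± 0.57 in leucocytes on the log2 scale. Neither ratio overlapped between the sample types. By contrast, the log2 ratio of miR-99b to its cluster partner miR-125a was -1.96 ± 0.97 in plasma and -1.08 ± 0.28 in leucocytes, with values that overlapped on FD. On HG they did not overlap, at -2.08 to -1.95 in plasma and -1.35 to -0.75 in leucocytes.

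**Figure D2:**
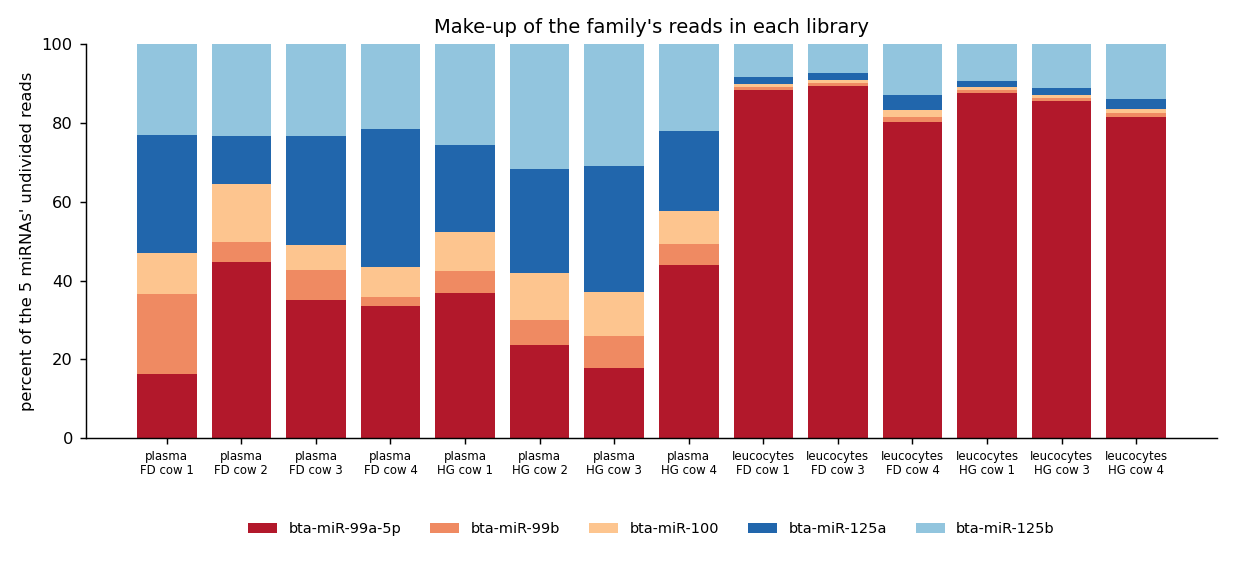
Percent of the family's undivided reads that each of the 5 members took in each library (stacked bars from 0 to 100). miR-99a-5p takes 80.1% or more in the 6 leucocyte libraries and 44.8% or less in the 8 plasma libraries.

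To ask which members differed between plasma and leucocytes of the same cows, edgeR's quasi-likelihood test with cow as a block was fitted across all names within each diet (cows 1, 3 and 4). The intervals and p-values of this test rest largely on a spread shared over all names, and not on the spread between the 3 cows alone. On FD, 4 of 5 members were higher in plasma, and 7.81% of the 743 names tested were called higher. miR-125a was 35.3-fold higher (95% interval 14 to 89.2, edgeR adjusted p = 7.96e-12), miR-100 19.6-fold (4.03 to 95.1, adjusted p = 0.00307), miR-99b 17.5-fold (3.53 to 86.6, adjusted p = 0.00527) and miR-125b 6.11-fold (2.2 to 17, adjusted p = 0.00586). On HG the same 4 were higher, where 10.2% of 729 names were called higher. miR-125a was then 14.3-fold higher (6.80 to 30.1, adjusted p = 2.86e-10), miR-100 13.2-fold (5.48 to 32.0, adjusted p = 1.87e-07), miR-99b 7.68-fold (3.07 to 19.2, adjusted p = 1.16e-04) and miR-125b 2.59-fold (1.30 to 5.16, adjusted p = 0.0209). In each of these 4 members all 3 cows had more CPM in plasma than in leucocytes on both diets, with the smallest difference 4.14-fold in miR-99b of cow 4 on FD. The edgeR folds use TMM scaling, which left the median of all names at a log2 fold change of -1.71 on FD and -1.78 on HG, and 11.2% and 33.2% of names were called lower. By CPM, the mean log2 difference over these cows gave 57.7-fold on FD and 55.8-fold on HG for miR-125a, and 32.0-fold and 51.7-fold for miR-100. For miR-99b it gave 27.8-fold and 30.0-fold, and for miR-125b 9.96-fold and 10.1-fold. The smaller folds on HG thus depended on the scaling.

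The calls on FD depended on which cow was left out. Without cow 1 edgeR called 0 of 702 names and no member, although 3 members had an unadjusted p under 0.05, and edgeR adjusted p-values of the 4 were 0.0821 to 0.224 with log2 fold changes of 1.80 to 4.2. Without cow 3 only miR-125a was called, and without cow 4 all 4 were. On HG, miR-99b, miR-100 and miR-125a were called in every one of 11 alternatives, while miR-125b lost its call without cow 3 (adjusted p = 0.0986) and without cow 4 (0.145).

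For miR-99a-5p the direction depended on the scaling. With TMM its log2 fold change was -0.37 ± 0.57 (SE) on FD (edgeR adjusted p = 0.622) and -1.30 ± 0.48 on HG (adjusted p = 0.0198, where 33.2% of names were called lower), whereas scaling by library size alone gave 0.34 and 0.66, with adjusted p of 0.694 and 0.304. The call on HG was also lost with DESeq2 (adjusted p = 0.0777), and over 11 alternatives it held in 4, with adjusted p of 0.0166 to 0.484. By CPM, miR-99a-5p was higher in plasma in 3 of 3 cows on each diet, by 1.06-fold to 1.39-fold on FD and 1.37-fold to 1.99-fold on HG. Relative to the median of all names, its TMM values were above that median on both diets.

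**Figure D3:**
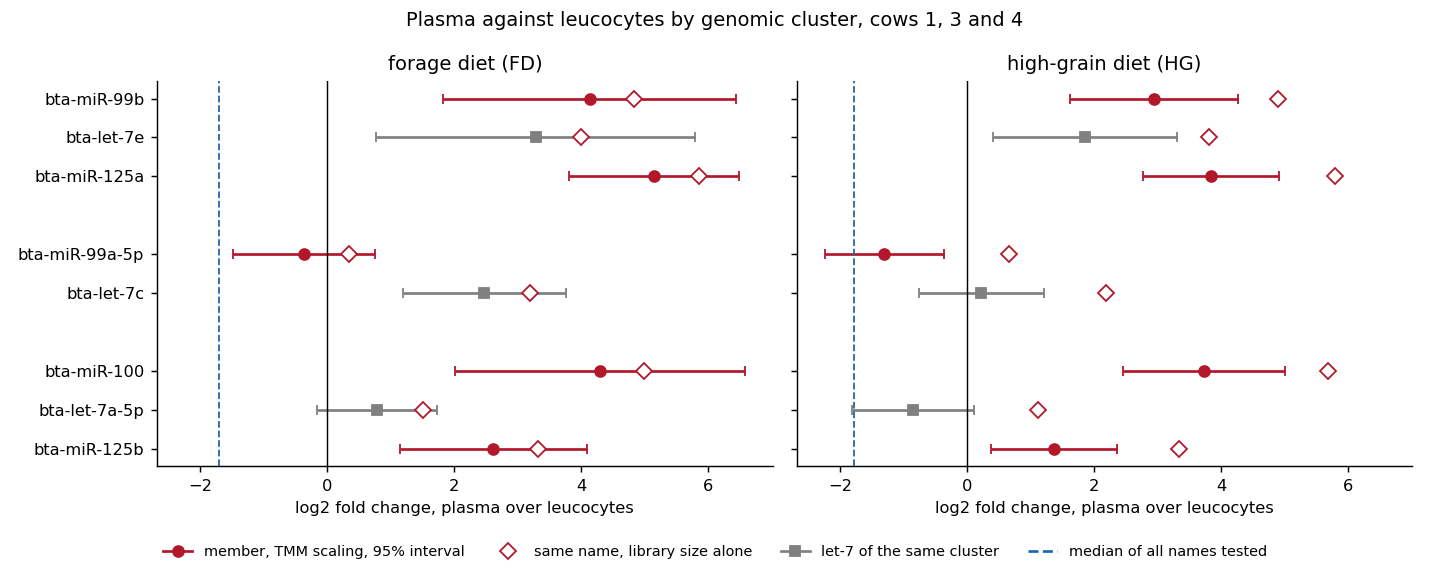
Log2 fold change of plasma over leucocytes (edgeR, TMM, 95% interval) for the members (circles) and the let-7 miRNAs of the same clusters (squares), grouped from top to bottom by chromosomes 18, 1 and 15, with scaling by library size as open diamonds and the TMM median of all names dashed. miR-125a lies at 5.14 on FD and 3.84 on HG, and miR-99a-5p (both diets) and let-7a-5p (HG) cross from below 0 with TMM to above 0 with library size; miR-125b is drawn on chromosome 15 but also has a hairpin on chromosome 1.

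The let-7 miRNAs of the same clusters, which repress growth genes and accumulate with differentiation, were measured alike. let-7e, which lies between miR-99b and miR-125a, measured 86.1 to 373 CPM in plasma and 7.45 to 15.5 CPM in leucocytes. Its fold was 9.72 on FD (edgeR adjusted p = 0.0537) and 3.61 on HG (adjusted p = 0.0324), so only the HG value passed the test with TMM, whereas both did with library size alone (adjusted p = 0.0346 and 2.37e-06). let-7c, next to miR-99a, measured 899 to 2150 CPM in plasma and 145 to 300.0 CPM in leucocytes, without overlap. It was 5.56-fold higher in plasma on FD (edgeR adjusted p = 0.00234) and had a fold of 1.17 on HG (adjusted p = 0.715). Scaling by library size alone gave log2 fold changes of 3.19 and 2.18 in place of 2.47 and 0.22, and both then passed the test (adjusted p = 1.85e-04 and 2.13e-04). miR-99a-5p and let-7c of one cluster thus gave folds of 0.774 and 5.56 on FD, a difference that was not tested. let-7a-5p, near miR-100, measured 4529 to 11333 CPM in plasma and 2632 to 4031 CPM in leucocytes, and with TMM passed the test on neither diet (log2 fold changes 0.79 and -0.85, edgeR adjusted p = 0.215 and 0.137). With library size alone it was higher in plasma on both (1.5 and 1.12, adjusted p = 0.0179 and 0.0464), and its CPM was higher in plasma in 3 of 3 cows on HG, by 1.45-fold to 3.79-fold. It is also made from hairpins outside this cluster.

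Of 9 let-7 family names (bta-let-7a-5p to bta-let-7i and bta-miR-98), 2 were higher in plasma on FD and 0 lower, with a median log2 fold change of 0.46. On HG 1 was higher and 4 were lower, with a median of -0.85, where 10.2% of all names were called higher and 33.2% lower and their median was -1.78. With library size alone, an alternative added after the data were seen, 4 were higher on FD and 5 on HG and 0 lower, with medians of 1.19 and 1.12 against -1.02 and 0.19 over all names. The shares of 10.2% and 33.2% belong to TMM and are no background for these counts. The 5 members of the miR-99, miR-100 and miR-125 family had TMM medians of 4.13 and 2.94. Within let-7, let-7b was 10.2-fold higher in plasma on FD (edgeR adjusted p = 5.34e-09), and let-7d was lower on HG with TMM (log2 fold change -1.85, adjusted p = 0.0014) but at 0.12 with library size alone (adjusted p = 0.866).

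The related miR-10a and miR-10b, which lie in Hox gene clusters, were high in plasma as well. miR-10b measured 1328 to 6094 CPM in plasma and 14.2 to 68.2 CPM in leucocytes, and was 70.6-fold higher on FD (edgeR adjusted p = 6.1e-16) and 42.2-fold on HG (adjusted p = 3.52e-18). miR-10a was 4.79-fold higher on FD (adjusted p = 0.00347) and 4.16-fold on HG (adjusted p = 3.97e-04). The opposite arms examined, those of the miR-99a and miR-99b hairpins, were scarce. bta-miR-99a-3p had 2 reads in 1 plasma library and 0 in the other 7, and 25 to 73 reads in leucocytes, against 56819 to 119849 of the 5p arm there. hsa-miR-99b-3p had 0 to 15 reads in plasma and 7 to 18 in leucocytes. Neither passed the test between plasma and leucocytes on FD or HG.

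In plasma, no member passed the test between the diets. edgeR called 0 of 536 names at an adjusted p under 0.05, a background of 0% (46 names had an unadjusted p under 0.05), and DESeq2 called 12 names (2.24%), none of them a member. Each member was higher on HG in 2 of 4 cows and lower in the other cows, and 0 of 5 members had diets that did not overlap, against 5.22% of all names. The cows did not move together. Cow 1 had less of 4 members on HG, from 0.143 times the FD value of miR-99b to 0.581 times that of miR-125b, while cow 3 had more of the same 4, up to 3.40 times in miR-100. miR-99a-5p was 0.4 times its FD value in cow 2 and 1.48 times in cow 4. The edgeR log2 fold changes of HG over FD ran from -0.54 ± 0.56 (SE) for miR-99a-5p (95% interval -1.82 to 0.74, adjusted p = 0.947) to -0.23 ± 0.44 for miR-125b (-1.24 to 0.78, adjusted p = 0.947). The widest interval, for miR-99b, was -2.08 to 1.04, so changes up to those sizes could not be told from 0. The sign itself was not stable: miR-100 and miR-125b turned to 0.10 and 0.17 when library size replaced TMM. Without cow 2, miR-99a-5p, miR-100 and miR-125b stood at 0.040, 0.12 and 0.035, and without cow 1 miR-99b stood at 0.040.

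**Figure D4:**
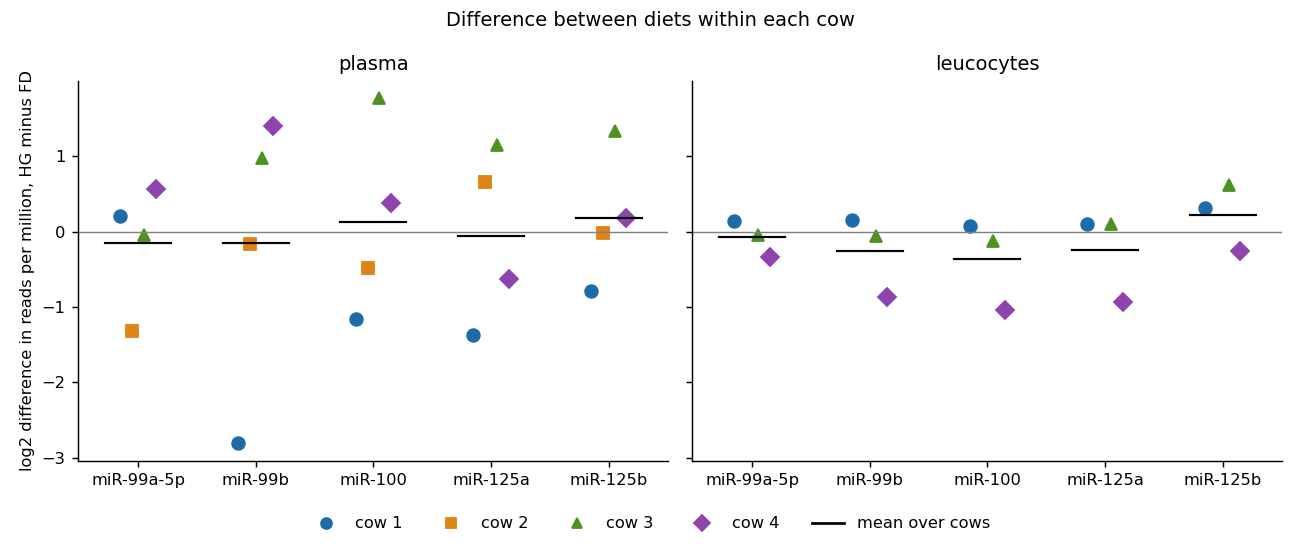
Log2 difference in CPM between HG and FD for each member within each cow, in plasma (4 cows) and leucocytes (3 cows); black lines are means over cows. Plasma points lie on both sides of 0 for every member, and leucocyte points of cow 4 lie below 0 for all 5.

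In leucocytes no member passed the test either, and the intervals were narrower. edgeR called 14 of 779 names (1.8%), 0 of them members, and DESeq2 called 36 (4.62%), also without a member. At an unadjusted p under 0.05 edgeR had 116 names and 0 members. No member had diets that did not overlap, against 14.5% of all names. The log2 fold changes of HG over FD were -0.067 ± 0.13 (SE) for miR-99a-5p, -0.24 ± 0.22 for miR-99b, -0.36 ± 0.23 for miR-100, -0.23 ± 0.21 for miR-125a and 0.23 ± 0.17 for miR-125b, with edgeR adjusted p-values of 0.529 to 0.879. Cow 4 had less of all 5 on HG, from 0.486 times the FD value in miR-100 to 0.833 times in miR-125b, whereas cow 1 had slightly more of all 5. Without cow 4, miR-125b was called higher on HG (log2 fold change 0.45, edgeR adjusted p = 0.0212), in a fit of the other 2 cows that called 111 of 747 names. In that fit miR-99a-5p, miR-99b and miR-125a also turned to 0.040, 0.036 and 0.090. In the library of cow 4 on HG, hsa-miR-451a had 23316 reads against 7282804 of bta-miR-451, so most miR-451 reads there were not divided. Splitting a read among names leaves the divided total unchanged, so the divided CPM of the members do not shift with this. The undivided total is lowered by it (39722104 undivided and 23508578 divided reads, against 36305474 and 18324737 for cow 4 on FD). Undivided CPM of that library are therefore raised and do not correct the divided values. On undivided reads cow 4 was at 0.568 times the FD value in miR-100, 0.926 times in miR-99a-5p and 0.976 times in miR-125b. With undivided reads 0 members were called as well. Of the let-7 list, let-7b was higher on HG (1.46-fold, adjusted p = 0.0455) and the other 8 passed no test.

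Whether the diet effect differed between plasma and leucocytes was tested as an interaction over the 12 libraries of cows 1, 3 and 4. edgeR called 0 of 794 names (0%; 56 at an unadjusted p under 0.05) and DESeq2 15 (1.89%), none a member. The members' interaction log2 fold changes were -0.30 to 0.56, with standard errors of 0.54 to 1.04 and edgeR adjusted p-values of 1.

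Over the 14 libraries, the numbers of reads of all members but miR-99a-5p differed far less than the library totals did. miR-99b had 506 to 1515 reads in plasma and 693 to 1173 in leucocytes, although the library totals behind them differed by up to 194 times. Its highest library had 2.99 times the reads of its lowest, the narrowest range of the 361 names detected in all 14 libraries, whose median was 132 times. miR-125a (6.74 times), miR-100 (7.12 times) and miR-125b (11.4 times) also had narrow ranges, which 9.7%, 10.5% and 16.6% of the names undercut. For miR-99b, CPM thus separated the sample types while the number of reads did not. miR-99a-5p had a range of 185 times, close to that of the totals, and there the reads separated the sample types (649 to 12729 in plasma, 56819 to 119849 in leucocytes) while CPM overlapped.

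Within leucocytes, miR-125b had 8710 to 10453 reads in the 6 libraries, a range of 1.2 times that 2 of 361 names undercut, while the totals differed by 3.1 times. Cow 4 had the smallest leucocyte libraries, 18324737 reads on FD and 23508578 on HG, and the highest CPM of miR-99b, miR-100, miR-125a and miR-125b on each diet. In plasma, cow 1 on FD had the smallest library (292241 reads) and the highest CPM of miR-99b, and cow 1 on HG had the largest (3178990 reads) and the lowest CPM of miR-125a and miR-125b. miR-99a-5p had its lowest plasma CPM (1110) in the smallest library but only 1279 CPM in the largest. Its highest plasma CPM (3747) was in cow 2 on FD, a library of 1119759 reads. The part that depth has in these levels was not tested.

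**Figure D5:**
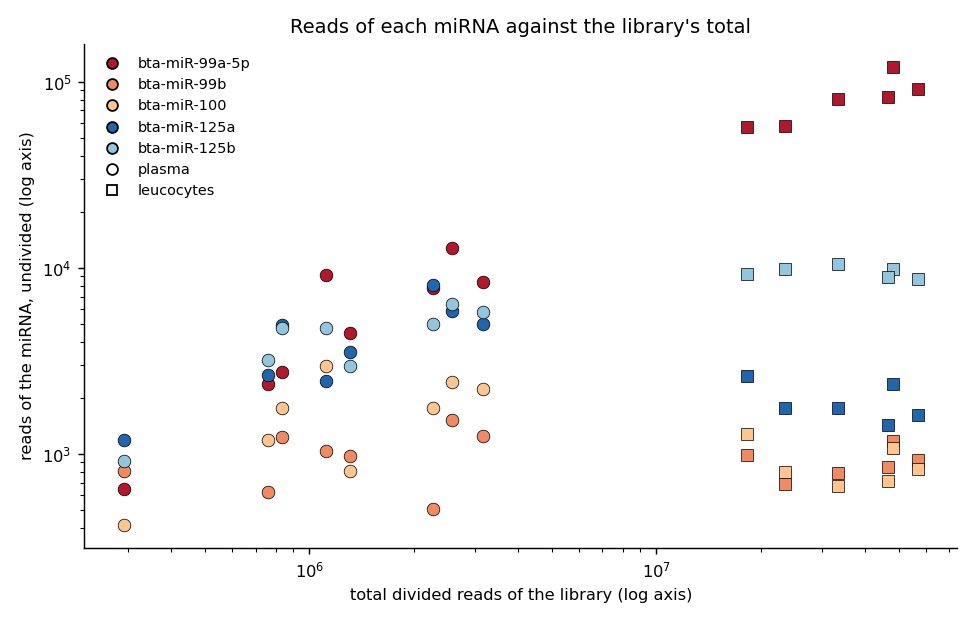
Undivided reads of each member against the total of divided reads of its library (both axes log), with plasma as circles and leucocytes as squares. miR-99b stays between 506 and 1515 reads from the smallest to the largest library, and miR-99a-5p climbs from 649 to 119849.

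Marker miRNAs of other tissues were followed in the same libraries. The vascular and stromal list (miR-126-3p, miR-126-5p, miR-143 and miR-145, all 4 present) summed to 28783 to 74277 CPM in plasma and 644 to 3252 CPM in leucocytes. The epithelial list (5 of 6 names present, miR-203 not among the names) summed to 3192 to 22163 CPM in plasma and 116 to 847 CPM in leucocytes, and miR-122 of liver measured 6662 to 82795 and 19.4 to 89.9 CPM. Of the plasma libraries, cow 1 on FD and cows 2 and 3 on HG had the highest sums of both the vascular and the epithelial list, and cow 3 on HG had the highest miR-125a and miR-125b. miR-122 did not follow these lists in plasma. It was lowest in cow 1 on FD (6662 CPM) and stood at 18783 and 13441 CPM in cows 2 and 3 on HG. In leucocytes cow 4 had the highest sums of both lists on each diet. Erythrocyte markers, with miR-451 first, summed to 60574 to 153740 CPM in plasma and 251147 to 422344 CPM in leucocytes, and so were abundant in the samples labelled as leucocytes. The highest sum was that of cow 4 on HG, where bta-miR-451 (309298 CPM) shared few reads with hsa-miR-451a and so kept most of its reads undivided. That sum is therefore not on equal terms with the other libraries, of which the highest was 311248 CPM (leucocytes of cow 1 on HG). The leucocyte list overlapped between the sample types, with 18914 to 35368 CPM in plasma and 24167 to 36920 CPM in leucocytes. All names present on these lists had reads in every group, so no defining marker was at 0. The part of other cells in the members' levels was not tested.

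The names whose profiles were most like each member, by the root mean square difference of centred log2(CPM + 1) over 14 libraries among 248 bovine names, split the family in the same way. miR-100 was nearest to miR-141 (0.27), miR-145 (0.30) and miR-143 (0.40), and miR-125a to miR-145, miR-126-5p and miR-126-3p (0.41 each). miR-99b was nearest to miR-30a-5p (0.36), miR-200c (0.49) and miR-1 (0.52), and miR-125b to miR-2332 (0.47), let-7e (0.47) and miR-365-3p (0.48). miR-99a-5p was instead nearest to miR-92a (0.39), miR-151-3p (0.43) and miR-181b (0.50). Between members, miR-100 and miR-125a were the closest pair (0.51), whereas miR-99a-5p was 1.5 from miR-125b and 2.26 to 2.64 from the others, although it shares a seed with miR-99b and miR-100. All 14 points share libraries of only 4 cows, and the distances largely reflect the difference between plasma and leucocytes.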

How the data were processed

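Small RNA of plasma (8 libraries) and leucocytes (6 libraries) was sequenced. According to the methods and labels, the authors demultiplexed with bcl2fastq 2.20, trimmed with Skewer and assigned reads with sRNAbench (Bowtie) to bovine and human names of miRBase in genome mode on UMD3.1. The authors' files, 1 per library, give each name's read count, the count of different sequences among those reads, and an estimated count (expected count) that splits a read with several matching names between them. The deposited tables scaled with DESeq2 were not used. The members and lists were chosen with earlier results of these data known.

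Estimated counts were rounded, names with fewer than 10 reads in total were left out, and edgeR 4.0.16 (R 4.3.3; TMM, robust quasi-likelihood test, cow as a block, as in the model of the study) was run on all names with Benjamini-Hochberg adjustment at 0.05. The study's DESeq2 Wald test was an alternative (DESeq2 1.42.0). Scripts used Python 3.11.15 and pandas 2.3.3 and were tested on simulated counts. Levels, shares and ratios carry no test. Named miRNAs were the 5 members, the human-named hsa-miR-99b-5p and hsa-miR-100-5p, and the opposite arms bta-miR-99a-3p and hsa-miR-99b-3p. Also named were the let-7 names of the members' clusters, miR-10a and miR-10b, and the 3 most alike bovine names of each member. From each list, those with the smallest adjusted p were named.

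Library totals were 292241 to 3178990 divided reads in plasma and 18324737 to 56770875 in leucocytes. Cow numbers of plasma follow the order of the labels and were checked against the study's numbering of cows, where 504 of 504 plasma and 198 of 198 leucocyte values were equal. Deviations from the group mean correlated at -0.37 to 0.34 for the same cow and -0.56 to 0.63 for different cows in plasma, so plasma pairing rests on the numbering. In leucocytes they were 0.61 to 0.86 and -0.83 to 0.42. Alternatives were other scalings, filters, undivided reads, names of identical values taken once, no block, and each cow left out. RT-qPCR and target prediction were not analysed here, and no mature sequences are printed.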

Additional observations from a re-analysis of the deposited data

How the results depend on the processing

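The 4 members higher in plasma kept that direction in all 11 alternatives on each diet, and no member was called for diet except miR-125b in leucocytes without cow 4. The number of names called moved with the method. DESeq2 called 12 names in the plasma diet comparison, 36 in leucocytes, 241 between sample types on FD and 15 in the interaction. In leucocytes, size factors gave 9, the filterByExpr filter 5 and names of identical values taken once 5. On FD, filterByExpr gave 252, and on HG library size alone gave 207. Without the replicate block for cow, 0 names were called for diet in leucocytes and 289 between sample types on FD, and the members called were 4 on FD, 5 on HG and 0 elsewhere.

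With library size alone, the log2 fold change turned to 0.10 for miR-100 and 0.17 for miR-125b (plasma diet), 0.34 and 0.66 for miR-99a-5p (sample types on FD and HG) and 0.12 for both miR-125a and miR-125b (interaction). The let-7 names, run so after the data were seen, turned on FD to 0.46 (let-7d), 0.52 (let-7f), 0.16 (let-7g) and 0.21 (let-7i) and on HG to 1.12 (let-7a-5p), 0.12 (let-7d), 0.50 (let-7f), 0.27 (let-7g), 0.19 (let-7i) and 1.24 (miR-98). The interaction of miR-99a-5p turned to -0.14 with DESeq2, its size factors or undivided reads, -0.082 without a filter and -0.20 with identical names once. The cause was not tested.

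With each cow left out, names called ranged from 0 to 111 (leucocyte diet), 0 to 75 (FD), 97 to 113 (HG) and 0 to 13 (interaction), and members called from 0 to 1 (leucocyte diet), 0 to 4 (FD) and 3 to 4 (HG). These fits test fewer names on fewer libraries. Log2 fold changes for plasma diet ranged from -0.97 to 0.040 (miR-99a-5p), -1.10 to 0.040 (miR-99b), -0.66 to 0.12 (miR-100) and -0.45 to 0.035 (miR-125b). For leucocyte diet they were -0.13 to 0.040 (miR-99a-5p), -0.40 to 0.036 (miR-99b) and -0.36 to 0.090 (miR-125a). For the interaction they were -0.19 to 0.25 (miR-99a-5p), -1.28 to 1.02 (miR-99b), -0.14 to 1.22 (miR-100), -0.74 to 0.22 (miR-125a) and -0.54 to 0.075 (miR-125b).

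Counting error was at most 9.64% of a member's value in a library. With log2(CPM + 10), 2 of the 3 nearest names were shared for miR-99b, miR-100 and miR-125a and 1 of 3 for miR-125b.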
